A study of Mus musculus with 6 samples.

Results

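The mitochondrial ribosomal protein genes were taken as all genes whose platform symbol starts with Mrpl or Mrps and a number, each read on its brightest single-gene probe set. There were 77 of them among 19937 genes measured, 48 Mrpl and 29 Mrps genes. They were measured in whole livers of FVB/NJ mouse embryos at embryonic day 13.5 on Affymetrix Mouse Gene arrays. Livers of Klf1 knockout (Klf1-/-) embryos on 3 arrays were compared with livers of wildtype embryos on 3 arrays. Each array was treated as the liver of a separate embryo. Timed matings of Klf1 +/- mice are given as the source of the embryos, and the livers were dissociated into single cells before RNA was extracted. Klf1 is a Krüppel-like transcription factor of red cell precursors, and the labels do not say which stretch of the gene was altered.

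Mitochondria keep a ribosome of their own, which translates the few messages encoded in mitochondrial DNA, all of them for core subunits of the respiratory chain and of ATP synthase. Its RNA comes from the mitochondrial genome, but all of its proteins are encoded in the nucleus, made in the cytosol and imported. Some of these proteins have counterparts in bacterial ribosomes and others are found in mitochondria alone. Red cell precursors need mitochondria for heme synthesis and clear them when they mature.

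Values are log2 of the deposited intensity. A change is knockout minus wildtype on that scale, followed by its standard error in the limma fit. A gene was called when its Benjamini-Hochberg adjusted p over all 19937 genes was under 0.05. Klf1 itself read 9.05, 9.38 and 9.12 in the knockout arrays, against 10.59, 10.58 and 10.76 in the wildtype arrays, a change of -1.46 ± 0.10 (limma adjusted p = 3.72e-06). Array medians of the linear intensity ran from 104.5 to 109.8. Upper quartiles on the log2 scale were 8.62, 8.69 and 8.71 on the knockout arrays and 8.62, 8.61 and 8.65 on the wildtype arrays. Markers of several cell types also differed. Summed intensity of 6 erythroid markers lay between 20010 and 21790 in knockout livers and between 35200 and 39200 in wildtype livers, and 5 of the 6 were called lower, the exception being Gata1. The 5 megakaryocyte markers were all called higher, with sums of 18080 to 23500 in knockout and 14150 to 14850 in wildtype livers. Of 4 granulocyte markers 3 were called higher (2927 to 3156 against 1822 to 2338), and of 5 macrophage markers 4 were called lower (2006 to 2213 against 2599 to 3239). The 6 hepatoblast markers summed to 38820 to 42340 in knockout and 40590 to 47730 in wildtype livers, with 1 called lower. Endothelial, mesenchymal and lymphoid markers, 4 each, had 1, 0 and 1 called higher and 0, 0 and 1 called lower. In RNA of a whole liver, fewer cells of a type and less RNA per cell cannot be told apart, and the part of these markers' cell types in the changes below was not tested.

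Most mitochondrial ribosomal protein genes differed little between knockout and wildtype livers. All 77 read above the array median on all 6 arrays, with gene means between 7.28 and 11.57 in knockout and between 7.30 and 11.35 in wildtype livers. In the limma fit 5 genes were called higher in the knockout, Mrpl22, Mrps11, Mrpl14, Mrpl45 and Mrpl10, and 1 was called lower, Mrpl52. That is 6.49% higher and 1.3% lower, where 10.8% of all genes were called higher and 8.26% lower (19.1% either way). The genes were brighter than most, and among the 9968 genes above the median level the same fit called 18.6% higher and 10.6% lower. The remaining 71 genes were not called.

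The sizes were small in both directions. None of the 77 changes passed 1.5-fold, a fold that 552 of all genes passed upward and 496 downward. The 95% intervals of the limma fit lay within 1.5-fold (0.585 on the log2 scale) either way for 76 of the 77 genes. The interval of Mrpl52, from -0.67 to -0.26, was the one that reached past it, and no interval reached 2-fold. Intervals of 21 genes left out 0, the same as an unadjusted limma p under 0.05. That held for 6636 of all 19937 genes and for 4376 of the 9968 above the median level. The median standard error was 0.089, and within groups the median SD of a gene was 0.063 in knockout and 0.132 in wildtype livers (n = 3 each).

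Small positive changes outnumbered negative ones, 59 against 18. The median change was 0.10, with quartiles at 0.01 and 0.19, beside -0.02 over all genes and 0.06 over the genes above the median level. In 25 genes all knockout arrays read above all wildtype arrays, and in 3 all read below. Over all genes the groups failed to overlap in 19% with the knockout above and in 18.5% with the knockout below (37.5% together). Brighter genes leaned the same way: among the 9968 above the median level, 32% had the knockout above and 18.4% the knockout below, and 59.6% of changes were positive. For the 77 genes the shares were 32.5% above, 3.9% below and 76.6% positive. The share with the knockout above was thus near that of the genes above the median level. The share below was smaller and the positive share larger than theirs. Those 9968 genes were not matched to the 77 in brightness. Of the 28 genes whose groups did not overlap 6 were called and 22 were not.

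**Figure D1:**
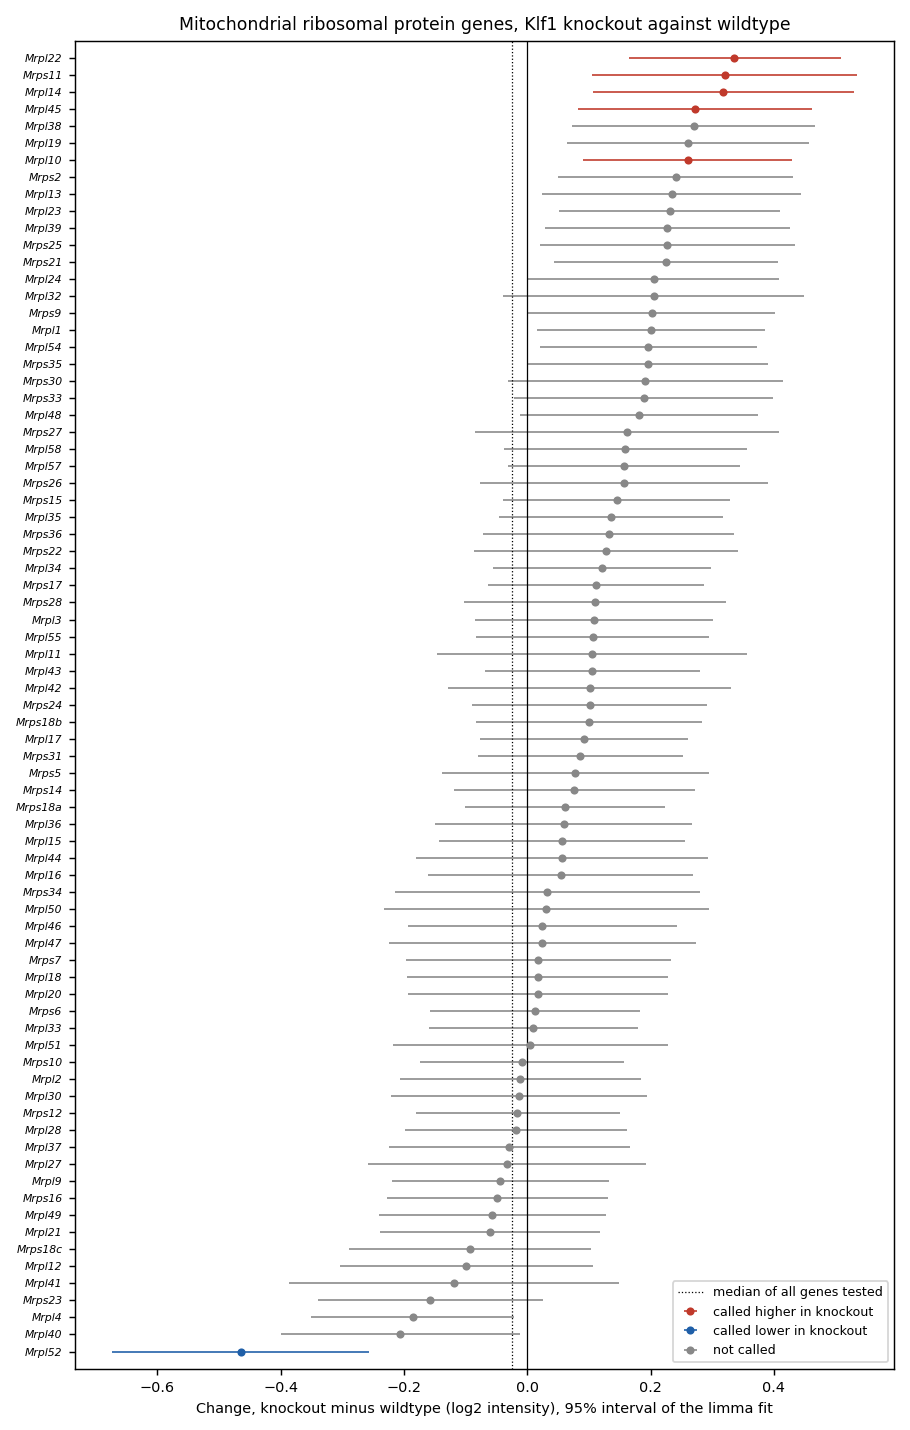
Change of each of the 77 genes in log2 intensity, knockout minus wildtype, with its 95% interval in the limma fit; red points were called higher, blue lower and grey not called, and the dotted line is the median of all genes tested. The changes run from -0.465 in Mrpl52 to 0.336 in Mrpl22, and the intervals of most genes span 0.

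The positive median moved with 1 array. Each array's median deviation of the 77 genes from their 6-array means was 0.01, 0.09 and 0.05 in knockout replicates 1, 2 and 3, and 0.03, -0.02 and -0.18 in wildtype replicates 1, 2 and 3. Over all genes these medians lay between -0.017 and 0.016. Wildtype replicate 3 was thus the low array, and wildtype replicate 1 stood above knockout replicate 1. Replicate 3 of the wildtype was the lowest of the 6 arrays in 62 of the 77 genes (80.5%), against 22.8% of all genes and 34.1% of the genes above the median level. Without wildtype replicate 3 the median change was 0.04, 47 of the 77 changes were positive, and 1 gene was called higher, Mrpl22, and 1 lower, Mrpl52.

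The same array was also low for other genes of mitochondria and ribosomes, though for a smaller share. It was the lowest of 6 in 40 of 82 nuclear subunits of oxidative phosphorylation (48.8%) and in 26 of 59 cytosolic ribosomal protein genes (44.1%). Median deviations of the oxidative phosphorylation genes were -0.02, 0.08 and 0.05 on the knockout arrays and -0.03, 0.00 and -0.09 on the wildtype arrays. For the cytosolic ribosomal protein genes they were -0.01, 0.06 and 0.04 on the knockout arrays and -0.01, 0.01 and -0.07 on the wildtype arrays.

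**Figure D2:**
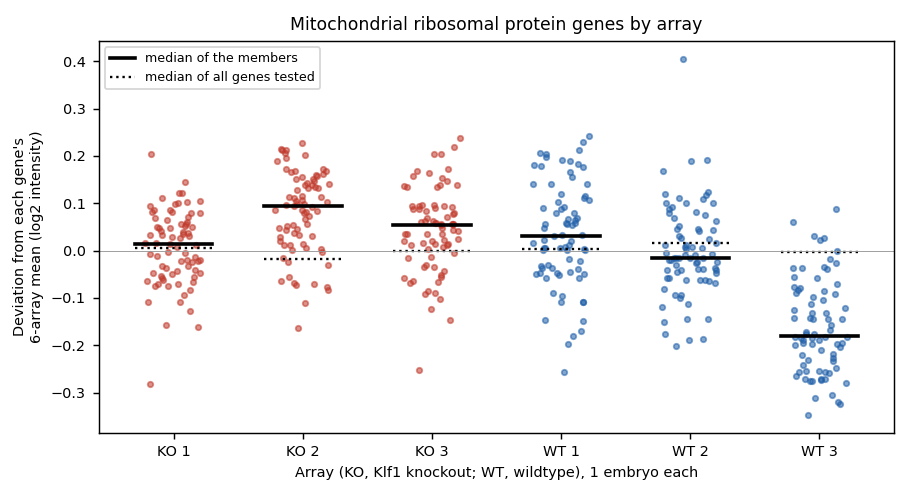
Deviation of each of the 77 genes from its own 6-array mean (log2 intensity), by array, with 3 knockout arrays at the left and 3 wildtype arrays at the right; solid bars mark the median of the 77 genes and dotted bars the median of all genes. The bar of wildtype replicate 3 lies at -0.181, and those of the other arrays lie between -0.015 and 0.094.

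The large subunit, which forms peptide bonds and holds the exit tunnel, contributed 50 genes with 4 called higher and 1 lower, and a median change of 0.08. The small subunit, which binds the message, contributed 26 genes with 1 called higher and 0 lower, and a median of 0.11. Genes with a bacterial counterpart numbered 46, with 4 called higher, 0 lower and a median of 0.09. Genes found in mitochondria alone numbered 30, with 1 called in each direction and a median of 0.10. Mrps36 was placed in no class, since its product is now known as a component of the 2-oxoglutarate dehydrogenase complex and not of the ribosome. The shares called higher were 8% (large), 3.85% (small), 8.7% (bacterial counterpart) and 3.33% (mitochondria alone), each below the 10.8% of all genes. The shares called lower were 2%, 0%, 0% and 3.33% in the same order, against 8.26% of all genes. No test compared the classes.

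Mrpl52, a large-subunit protein found in mitochondria alone, fell. It read 9.18, 9.29 and 9.21 in knockout livers, against 9.66, 9.86 and 9.55 in wildtype livers. All knockout arrays were below all wildtype arrays, with a gap wider than the range within the knockout. Its change of -0.47 ± 0.09 (limma adjusted p = 0.00592) was called with each of the 6 arrays left out in turn, when it ran from -0.54 to -0.38. It was not called when each gene's own variance was used without moderation (adjusted p = 0.0709).

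Mrpl22, a large-subunit protein that lines the exit tunnel, rose. Its values were 8.45, 8.56 and 8.56 in knockout livers and 8.25, 8.18 and 8.14 in wildtype livers. The groups were apart by more than the spread within either, and the change was 0.34 ± 0.08 (limma adjusted p = 0.012). The call was lost without knockout replicate 2 (adjusted p = 0.053) or replicate 3 (adjusted p = 0.0581).

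Mrps11, of the platform of the small subunit, read 8.73, 8.90 and 8.91 in knockout livers, against 8.54, 8.68 and 8.36 in wildtype livers. The lowest knockout array was close to the highest wildtype array, and the change was 0.32 ± 0.10 (limma adjusted p = 0.0424). The call was lost when wildtype replicate 1 or 3, or knockout replicate 2 or 3, was left out. Mrpl14 is a large-subunit protein at the face that meets the small subunit. It read 9.23, 9.31 and 9.38 in knockout livers and 8.89, 9.17 and 8.90 in wildtype livers, where replicate 2 stood near the knockout range. Its change of 0.32 ± 0.10 (limma adjusted p = 0.0412) was kept without wildtype replicate 2 and lost with any of the other 5 arrays left out.

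Mrpl45 sits at the tunnel exit and ties the ribosome to the inner membrane. Its values were 8.58, 8.69 and 8.58 in knockout livers and 8.45, 8.37 and 8.22 in wildtype livers, without overlap. The change was 0.27 ± 0.09 (limma adjusted p = 0.0481), and the call was kept only without wildtype replicate 1. Mrpl10, at the base of the stalk that recruits translation factors, read 10.79, 10.88 and 10.84 in knockout livers, against 10.56, 10.65 and 10.52 in wildtype livers. The change was 0.26 ± 0.08 (limma adjusted p = 0.0381), and the call was lost with any of the 6 arrays left out. So of the 6 calls, 1 (Mrpl52) held with every array left out, and the 5 higher calls did not. The scaling of the arrays also ended calls. After quantile normalization the calls of Mrps11, Mrpl14 and Mrpl45 were lost (limma adjusted p = 0.0764, 0.0618 and 0.119), and with 75th percentile centring those of Mrps11, Mrpl14, Mrpl45 and Mrpl10 (limma adjusted p = 0.0838, 0.0817, 0.113 and 0.0912). Mrpl22 and Mrpl52 were called under both of these scalings and with centring on array medians or on housekeeping genes.

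**Figure D3:**
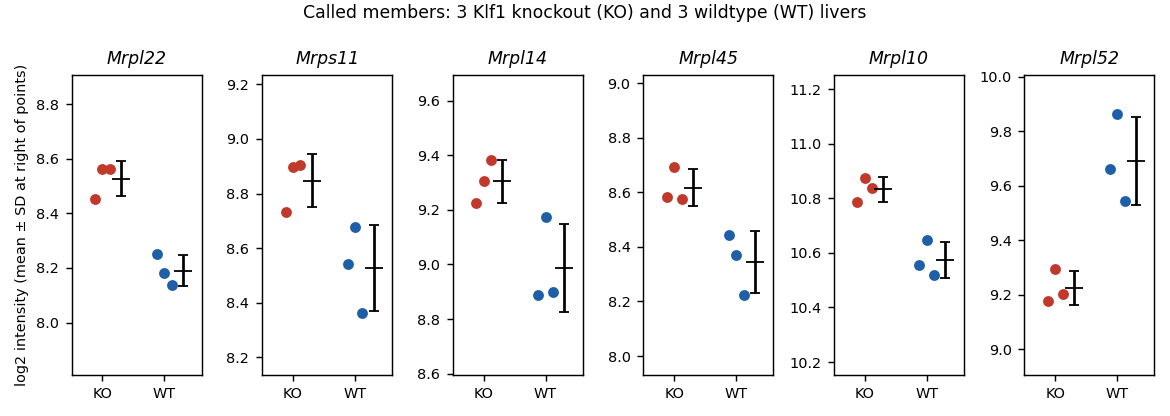
Log2 intensity of the 6 called genes in the 3 knockout (KO) and 3 wildtype (WT) livers, 1 point per array, with the mean and SD at the right of the points; each panel has its own range of the vertical axis. In all 6 genes the points of both groups are apart, with KO above WT in 5 and below WT in Mrpl52.

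Among the genes not called, Mrpl38 came nearest to the threshold. The largest change not called, 0.27 ± 0.09 in Mrpl38 (limma adjusted p = 0.0584), was larger than the smallest called, 0.26 in Mrpl10. Mrpl38, a protein of the central protuberance, read 9.27, 9.41 and 9.44 in knockout livers and 9.04, 9.24 and 9.03 in wildtype livers. After Mrpl52 the most negative changes were those of Mrpl40, -0.21 ± 0.09 (limma adjusted p = 0.128), and Mrpl4, -0.19 ± 0.07 (limma adjusted p = 0.108). Mrpl4, which lines the exit tunnel like Mrpl22, read 9.50, 9.53 and 9.53 in knockout livers, against 9.77, 9.67 and 9.67 in wildtype livers. In both of these genes all knockout arrays were below all wildtype arrays. Mrpl38, Mrpl40 and Mrpl4 were singled out after their values were seen.

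Paralogs and genes with reported roles outside the ribosome were not called. The 3 Mrps18 genes encode related proteins that occupy different places in the ribosome. Mrps18a, whose product lies in the large subunit, had a difference of 0.06 ± 0.07 (limma adjusted p = 0.592). For Mrps18b the value was 0.10 ± 0.08 (limma adjusted p = 0.428), and for Mrps18c, the counterpart of the bacterial protein, -0.09 ± 0.09 (limma adjusted p = 0.496). Mrpl12, the stalk protein that in human cells also binds mitochondrial RNA polymerase, read 9.72, 9.68 and 9.69 in knockout livers and 9.84, 9.94 and 9.61 in wildtype livers. These groups overlapped, and the interval of the difference was -0.30 to 0.11. Mrpl41 (-0.12 ± 0.12) and Mrps30 (0.19 ± 0.10), both also described in cell death, and Mrps36 (0.13 ± 0.09) had limma adjusted p of 0.525, 0.212 and 0.344.

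A second single-gene probe set existed for 8 of the 77 genes, and none of the unused ones was called over all probe sets. The annotation used here gives no position for a probe set, so the brighter one may lie at another locus, such as a processed copy. The values of these 8 genes (Mrpl23, Mrpl27, Mrpl41, Mrpl47, Mrpl51, Mrps33, Mrps36 and Mrps5) are uncertain in that way. Genes with a single probe set, and the genes outside the 77, could not be checked for this either. The change of Mrpl23 was 0.23 on the used and 0.22 on the other probe set, and that of Mrpl41 was -0.12 and -0.13. Mrpl47 differed most. Its used probe set read 8.47, 8.62 and 8.37 in knockout livers and 8.68, 8.45 and 8.25 in wildtype livers, a change of 0.02. The dimmer one read 6.50, 6.39 and 6.15 in knockout livers, against 6.65, 6.87 and 6.94 in wildtype livers, a change of -0.47 ± 0.12 (limma adjusted p = 0.0552 over all probe sets). In Mrps33 the used probe set gave 0.19 and a much dimmer one -0.26. Mrpl53 shared its only probe set with Ccdc142 and was not counted (change -0.06).

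RefSeq promoter windows of GRCm38.p6, from 250 bases before to 50 bases after the listed start, were available for 68 of the 77 genes, in 74 windows. Letters known to be bound by regulators of mitochondrial genes were searched on both strands, and overlapping matches were each kept. The letters CGCANGCG, read by NRF1, were in 27.0% of the windows, against 12.2% of 18488 windows of 15012 protein-coding genes tested. The letters CCGGAAG, read by ETS factors such as GABP, were in 33.8%, against 12.2%. Those of YY1, ATGGCGGC, were in 14.9%, against 3.26%. At least 1 of these 3 was found in 43 of the 68 genes, counted by gene and not by window. The same count was not made for the other genes. The letters CCNCNCCC, which Klf1 and other Krüppel-like factors can bind, were in 63.5%, against 59.9%. The windows had a median GC content of 58.5%, against 57.7%, and a median of 21 CpG, against 15. The part of base composition in these shares was not tested. These are matches of letters, not measured binding.

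Stretches upstream of the start are shown for the called genes other than Mrpl14, to place these letters beside the values above. The listed starts of Mrpl22, Mrpl45 and Mrpl14 lie inside the span that RefSeq gives the gene, so these windows may not be the only promoters. Capitals mark a match. All lie on the plus strand of GRCm38.p6 and are from RefSeq. For Mrpl22 the stretch chr11:58171610-58171639 holds an ETS match followed by an NRF1 match, and for Mrpl45 chr11:97315657-97315686 ends in an NRF1 match. For Mrpl10, chr11:97041462-97041581 holds a Krüppel-like match. For Mrpl52, chr14:54426789-54426908 holds an ETS match read on the minus strand. The stretch chr7:78783090-78783130 before Mrps11 reaches to the start of Mrpl46 on the opposite strand and holds none of the 4 sets of letters.
Mrpl22: cCCGGAAGccggcctcggactgCGCATGCG
Mrpl45: tacttccaaagtggtttcattgCGCACGCG
Mrpl10: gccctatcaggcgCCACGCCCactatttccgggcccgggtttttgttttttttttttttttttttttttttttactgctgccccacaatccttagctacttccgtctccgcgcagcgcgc
Mrpl52: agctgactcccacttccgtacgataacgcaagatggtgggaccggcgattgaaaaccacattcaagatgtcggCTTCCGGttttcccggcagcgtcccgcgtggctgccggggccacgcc
Mrps11: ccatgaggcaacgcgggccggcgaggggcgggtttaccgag

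Of the 5 genes called higher, 4 held the NRF1 letters somewhere in the window of 300 bases, Mrpl10, Mrpl14, Mrpl22 and Mrpl45. Among all mitochondrial ribosomal protein genes with a window, 20 held these letters and 48 did not. None of the 4 calls held with every array left out in turn. The Krüppel-like letters were likewise held by 4 of the 5, and by Mrpl52; the YY1 letters were held by 2 of the 5, and the ETS letters by 1 of the 5 and by Mrpl52. The 20 genes with the NRF1 letters had a median change of 0.16 and the 48 without a median of 0.07, with 1 called higher and 1 lower. Genes with the ETS letters numbered 25 and had a median of 0.10, against 0.09 in the others. For the YY1 letters the medians were 0.08 in 11 genes and 0.10 in the others, and for the Krüppel-like letters 0.09 in 44 genes and 0.11 in the others. No test was made of these counts and medians, and no such medians are given here for other genes with these letters. A link between the letters and the changes was not tested.

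Many of these genes start back to back with a neighbour. A gene on the opposite strand started within 500 bases upstream of 21 of the 68 genes (30.9%), against 8.21% of the 15012 protein-coding genes, with 32 to 332 bases between the starts. Of 18 such neighbours that were measured and are not themselves among the 77 genes, 3 were called higher and 0 lower, where 10.8% of all genes were called higher and 8.26% lower. Tmem63b, a membrane channel gene, starts 131 bases from Mrpl14. It read 9.01, 8.98 and 9.12 in knockout livers, against 8.32, 8.63 and 8.80 in wildtype livers, a change of 0.45 ± 0.12 (limma adjusted p = 0.0201) beside 0.32 in Mrpl14. Both genes of that pair were called higher, and the call of Tmem63b was lost without knockout replicate 3 (adjusted p = 0.0769). The zinc finger gene Zfp189 was called at 0.30 ± 0.08 (limma adjusted p = 0.028), with 0.03 in Mrpl50 93 bases away. Its call was lost when replicate 2 or 3 of either genotype was left out.

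Sars2, the mitochondrial seryl-tRNA synthetase, starts 147 bases from Mrps12, a small-subunit protein at the decoding site. Sars2 was called at 0.28 ± 0.08 (limma adjusted p = 0.0398), a call kept only without knockout replicate 1, and the difference in Mrps12 was -0.02 ± 0.08, with an interval of -0.18 to 0.15. Within each array, Sars2 minus Mrps12 was 1.65, 1.64 and 1.79 in knockout livers, against 1.39, 1.28 and 1.52 in wildtype livers. Mrps11 and Mrpl46 are both among the 77 genes and start 42 bases apart. Mrpl46 read 8.71, 8.70 and 8.89 in knockout livers and 8.89, 8.75 and 8.58 in wildtype livers, a change of 0.02 ± 0.10. Mrps11 minus Mrpl46 was 0.03, 0.20 and 0.01 in knockout livers and -0.35, -0.07 and -0.22 in wildtype livers.

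In both pairs every knockout array had the higher difference, by 0.30 on average in each. These 2 pairs were picked after their values were seen, because 1 gene of each was called and the other was near 0, so the differences are a description with no test. The other measured pairs ran from nearly equal changes to differences of about the same size. Mrpl43 had 0.11 and Twnk, the mitochondrial DNA helicase, 0.10 at 116 bases, while Mrpl30 had -0.01 and Mitd1 0.27 at 66 bases, Mrpl21 -0.06 and Ighmbp2 0.20 at 32 bases, and Mrpl57 0.16 and Ska3 -0.04 at 76 bases. None of these 8 genes was called.

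**Figure D4:**
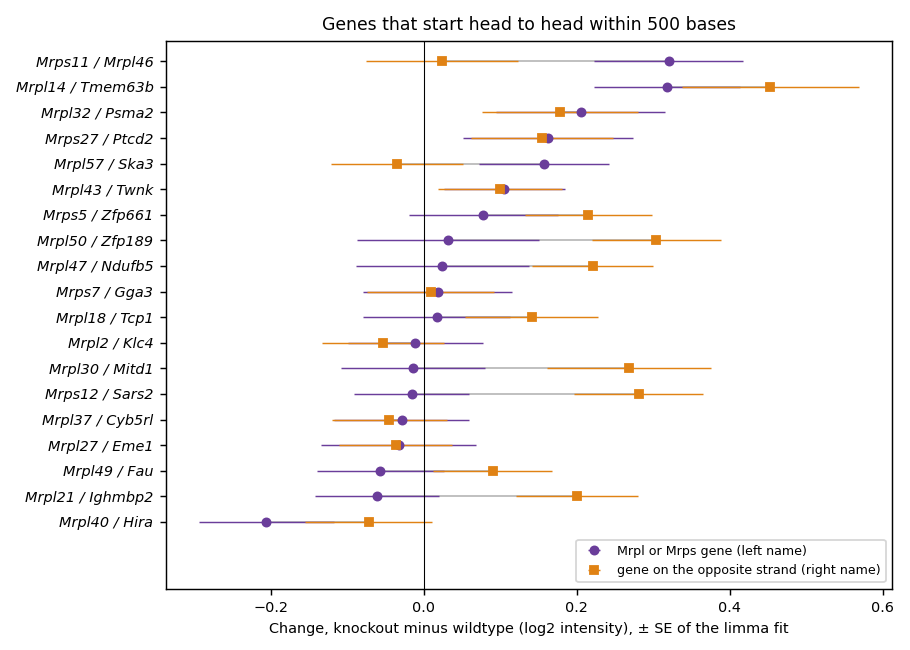
Change of each mitochondrial ribosomal protein gene (circles, left name) and of the measured gene that starts within 500 bases on the opposite strand (squares, right name), as a log2 difference of knockout over wildtype, with bars for the limma standard error. Mrps11 and Mrpl46 are drawn once as a pair; their changes of 0.32 and 0.024 stand apart, while both genes of the Mrpl43 and Twnk pair lie near 0.1.

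Other genes of the mitochondrial translation pathway mostly differed little as well, with a few larger calls. The counts below stand beside 10.8% of all genes called higher and 8.26% called lower. Among the 9968 genes above the median level these shares were 18.6% and 10.6%. Of 4 measured mitochondrial ribosomal proteins that carry other names 1 was called, Chchd1, a small-subunit protein. It read 9.31, 9.35 and 9.17 in knockout livers, against 9.01, 8.91 and 8.73 in wildtype livers, a change of 0.39 ± 0.09 (limma adjusted p = 0.0136) that was not called without knockout replicate 2 (adjusted p = 0.0583). The other 3, Dap3, Ptcd3 and Gadd45gip1, had changes of 0.02, 0.02 and -0.11.

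Among 24 genes of ribosome assembly and rRNA modification 2 were called higher (8.33%) and 1 lower (4.17%), with a median of 0.14. Both shares were below those of all genes. Mrm1, which methylates the ribosomal RNA of the large subunit, fell. It read 7.87, 8.04 and 7.95 in knockout livers, against 8.50, 8.51 and 8.46 in wildtype livers, a change of -0.54 ± 0.08 (limma adjusted p = 0.00071). Eral1, a GTPase that chaperones the ribosomal RNA of the small subunit, read 9.30, 9.49 and 9.43 in knockout livers, against 8.89, 8.98 and 8.98 in wildtype livers, a change of 0.45 ± 0.08 (limma adjusted p = 0.00285). In both genes the groups were far apart relative to their spread. Mrm1 and Eral1 were called with each array left out in turn. Mettl15, which methylates the RNA that Eral1 binds, was called at 0.35 ± 0.10 (limma adjusted p = 0.0274), but not when replicate 2 or 3 of either genotype was left out.

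Of 15 genes that make or process mitochondrial DNA and RNA 2 were called higher (13.3%, against 10.8% of all genes) and 0 lower, with a median of 0.10. Tefm, the elongation factor of mitochondrial transcription, read 7.74, 7.77 and 7.83 in knockout livers, against 7.46, 7.31 and 7.15 in wildtype livers, a change of 0.47 ± 0.09 (limma adjusted p = 0.00463). Elac2, which trims the ends of mitochondrial tRNAs, was called at 0.30 ± 0.09 (limma adjusted p = 0.0301). The call of Tefm held with each array left out, and that of Elac2 was lost when wildtype replicate 1 or 3, or knockout replicate 2 or 3, was left out. Sars2 was the 1 called higher among 16 aminoacyl-tRNA synthetases (6.25%), with 0 lower and a median of 0.10.

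Translation factors had 0 of 15 called in limma, 4 at an unadjusted p under 0.05, and a median of 0.09. With a variance trend and robust moderation 2 were called higher. The smallest p values there belonged to Gfm2, a factor of ribosome recycling (0.21 ± 0.07, limma adjusted p = 0.0695), and Lrpprc, which stabilises mitochondrial messages (0.21 ± 0.08, limma adjusted p = 0.0951). Of 26 genes of protein import 1 was called higher (3.85%, against 10.8% of all genes) and 0 lower, and the median was 0.01. The called gene was Pmpcb, a subunit of the peptidase that removes import signals, at 0.30 ± 0.08 (limma adjusted p = 0.0209). The call was kept only without wildtype replicate 1.

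Regulators of mitochondrial gene expression had 0 of 11 called higher and 1 lower (9.09%, against 8.26% of all genes), with a median of -0.03. Pprc1, a coactivator related to PGC-1, read 8.34, 8.44 and 8.55 in knockout livers, against 8.72, 8.70 and 8.72 in wildtype livers, a change of -0.27 ± 0.08 (limma adjusted p = 0.0408). The call was kept only without knockout replicate 3, and was lost when arrays were centred on their medians or on housekeeping genes. Nrf1, whose letters were searched above and which was added here after its value was seen, read 9.07, 9.23 and 9.20 in knockout livers and 9.33, 9.43 and 9.43 in wildtype livers. Its change of -0.23 ± 0.08 was not called (limma adjusted p = 0.069).

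The respiratory chain and ATP synthase, whose core subunits the mitochondrial ribosome makes, had 7 of 82 nuclear genes called higher (8.54%) and 0 lower, with a median of 0.08. Both shares were below the 10.8% and 8.26% of all genes. The largest change there was in Cox6b2, a cytochrome oxidase subunit known from testis. It read 10.22, 10.41 and 10.46 in knockout livers, against 8.56, 8.68 and 8.87 in wildtype livers, a change of 1.66 ± 0.10 (limma adjusted p = 1.29e-06). Cox7a1, the heart and muscle form of another subunit, was called at 0.70 ± 0.10 and Ndufv3, of complex I, at 0.46 ± 0.08 (limma adjusted p = 0.000548 and 0.00308). The calls of these 3 genes held with each array left out in turn. Without knockout replicate 2 there were 3 higher calls in place of 7. Without wildtype replicate 3 there were 4 higher and 1 lower, and without wildtype replicate 1 there were 10 higher and 1 lower. Cytosolic ribosomal protein genes had 0 of 59 called in either direction in limma, 7 at an unadjusted p under 0.05, and a median of 0.05. With a variance trend and robust moderation 4 of them were called higher.

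**Figure D5:**
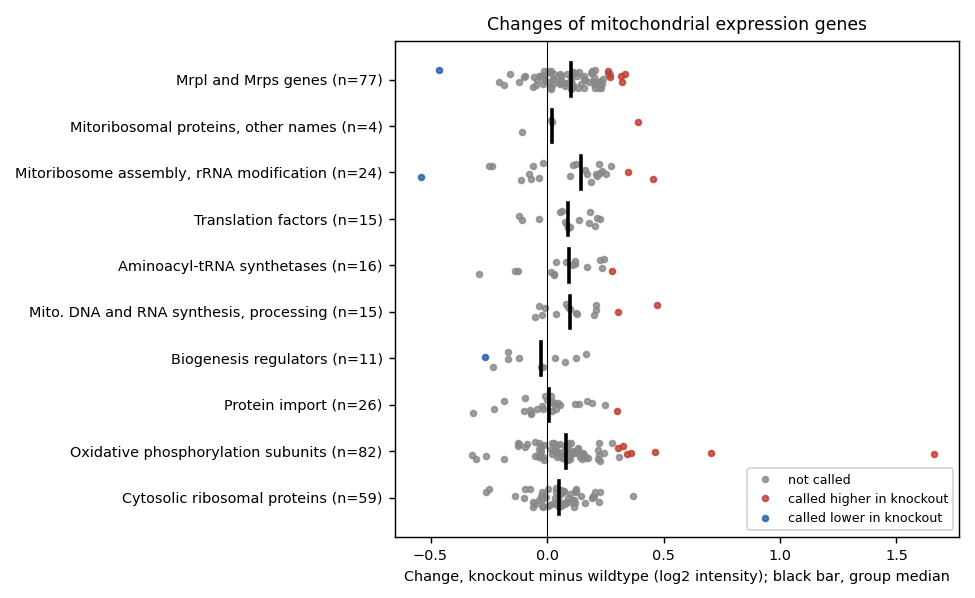
Changes of single genes, knockout minus wildtype on the log2 scale, by group, with a black bar at each group's median; red points were called higher, blue lower and grey not called. Medians lie between -0.025 and 0.144, and the point at 1.66 is Cox6b2.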

How the data were processed

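RNA of whole livers was measured on 6 one-colour Affymetrix arrays, 3 Klf1 knockout and 3 wildtype, and groups were taken from the labels. Per the submitters' processing notes, the authors used RMA and Affymetrix Power Tools 1.8.6, and the deposited values are intensities, 1 per probe set. RMA corrects background, makes array distributions equal and summarises probes, which hides differences in total RNA between livers. For the probe sets' genome build and annotation, nothing is given in the sources used here. The deposited intensities are on a linear scale, and log2 was taken without a filter or further normalization.

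Of 34760 probe sets, 21640 had 1 gene in the platform annotation, 1321 several and 11799 none. Genes were read on their brightest single-gene probe set, which left 19937. Knockout and wildtype were compared with limma 3.58.1 (lmFit, then eBayes; R 4.3.3) in a 2-sided test on group alone, with Benjamini-Hochberg adjustment over all 19937 genes; the fit was tested on simulated data. The number of arrays limits the precision. The labels do not say if litters differed between embryos. Each limma p-value sets a group difference against the spread between arrays of a group, moderated over all genes. The part of litters in that spread is not known.

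The genes and lists were chosen with earlier results of these data known. Genes named in full were Klf1, called members (up to 12 in each direction), the Mrps18 paralogs, Mrpl12, Mrps36, Mrpl41 and Mrps30. In each companion list they were up to 3 called genes per direction or, with none called, the 2 of smallest p. Other genes were named with their values known, and only some are marked so where they appear. Those without a mark include Tmem63b, Zfp189, Mrpl47 and the pairs set beside those of Mrps11 and Sars2. Neighbouring starts and sequences were taken from RefSeq tables of GRCm38.p6. Alternatives were other normalizations and centrings, a filter on dim genes, the mean of probe sets, other variance models, a replicate block, a stricter threshold and leaving out each array.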

Additional observations from a re-analysis of the deposited data

How the results depend on the processing

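Of the mitochondrial ribosomal protein genes, 5 were called higher as reported (6.49%, against 10.8% of all genes). The count was 4 after quantile normalization, where Mrpl23 and Mrps21 joined Mrpl22 and Mrpl10, 1 with 75th percentile centring, 2 with centring on array medians or on deviations of housekeeping genes, and 5 with the mean of a gene's probe sets. It was 10 when genes below the median level were left out before the fit or when a variance trend with robust moderation was used (13% both times, against 23.5% and 11.9% of all genes in these fits), 2 without moderation and 0 at an adjusted p under 0.01. With a replicate block it was 3. The same replicate numbers did not pair the arrays: deviations from the group means correlated at -0.156, -0.224 and 0.183 for numbers 1, 2 and 3. With 1 array left out, the count lay between 0 and 6: 2 without knockout replicate 1, 0 without knockout replicate 2 or 3, 6 without wildtype replicate 1 (Mrpl22 and Mrpl45 of the reported 5, with Mrpl13, Mrpl24, Mrpl39 and Mrps25), 4 without wildtype replicate 2 and 1 without wildtype replicate 3. The share called higher was above that of all genes in the fit with a variance trend and below it in each other setting. The count called lower was 1 in every setting, Mrpl52 in all but the fit without moderation, where it was Mrpl4. The median change was positive throughout, between 0.036 and 0.13 with 1 array left out and between 0.053 and 0.105 in the other settings. The causes of these differences were not tested.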
